A study of Mus musculus with 16 samples.

Results

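The transcripts of 10 S100 calcium-binding protein genes, S100a3, S100a4, S100a6, S100a7a, S100a8, S100a9, S100a10, S100a11, S100a14 and S100a16, were followed in mouse footpad epidermis after papain injection on a diet poor in ligands of the aryl hydrocarbon receptor (AhR) and on the same diet with a ligand precursor added. The genes were chosen by name from the gene family, with earlier results of these data known, and 7 other S100 genes of the table are described apart. All 10 were found once each among the 50600 gene identifiers of the count table. All 10 had at least the minimum of 10 counts over the study and were among the 22155 genes tested.

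S100 proteins are small proteins that bind calcium through EF-hand loops and act mostly as dimers. Inside cells they bind annexins, myosin and other partners, and several are released from injured cells and leukocytes and then bind receptors such as Tlr4 and Ager. S100a8 and S100a9 encode the subunits of calprotectin, which sequesters zinc and manganese, is a major protein of neutrophils and is also made by stressed keratinocytes. In skin, S100a11 is a cornified envelope component and annexin partner, S100a10 the partner of annexin A2, S100a14 and S100a16 epithelial family members, S100a6 the calcyclin gene, S100a7a the mouse relative of psoriasin, S100a3 a gene of the hair cuticle and S100a4 a gene of fibroblasts, leukocytes and other motile cells.

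RNA from the epidermal cells of female C57/B6J mice was sequenced as 16 libraries, 4 in each of 4 groups, with the single mouse as the study's unit. From 5 weeks of age the mice ate for 3 weeks a purified synthetic diet, either without addition (AhR-poor diet) or with indole-3-carbinol (I3C) at 200 ppm (I3C diet), and were then injected in the footpad with PBS (vehicle) or with the cysteine protease papain, an allergen, 50 μg in the same volume of 50 μl. Epidermis was taken 6 hr later, separated from dermis with dispase and depleted of dead cells, so each library is a mixture of the cells of the sheet. Mice on a diet were housed together, so diet and cage cannot be told apart. Libraries are named here by the last part of the code in their labels, T108 to T111 for vehicle on the I3C diet, T106 and T113 to T115 for papain on the I3C diet, T100 to T103 for vehicle on the AhR-poor diet, and T104, T105, T107 and T112 for papain on the AhR-poor diet, and values of a group are given in this order.

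Library totals ranged from 22500821 to 51844375 counts with a median of 37177795, and 3 counts corresponded to between 0.0569 and 0.130 CPM, counts scaled to a library total of 1e6. Summed levels of 7 basal keratinocyte markers lay between 21100 and 37300 CPM and those of 7 suprabasal markers between 19200 and 44900 CPM, against 0.742 to 837 CPM for the lists of neutrophils, monocytes and macrophages, dermal fibroblasts, epidermal T cells, endothelial cells and hair, so the label of epidermal cells was borne out by keratinocyte genes. The 10 dermal fibroblast markers summed to between 454 and 837 CPM with papain on the AhR-poor diet, 180 to 267 CPM with vehicle on that diet, and 87.8 to 180 CPM on the I3C diet. Without Thy1, which held most of that list in the I3C libraries, the sums were 277 to 666 CPM with papain on the AhR-poor diet, up to 190 CPM with vehicle on that diet, and 11.9 to 25.8 CPM on the I3C diet. The part of such cells in the results below was not tested.

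All 10 genes lie on chromosome 3 (GRCm38). In chromosomal order S100a14, S100a16, S100a3, S100a4, S100a6, S100a7a, S100a8 and S100a9 occupied 168866 bp from 90526856 to 90695721, and S100a11 (93520488 to 93526287) and S100a10 (93555080 to 93564643) lay 2824766 bp further on. S100a9 was the only member annotated on the minus strand. The gene model of S100a3 shared exonic bases with 2 other gene models, at most 144 bases with either, and that of S100a4 with 1. The predicted gene Gm42674 on the same strand shared 144 exonic bases with S100a3 and 302 with S100a4. It was listed with 0 counts in all libraries. Of the others, S100a6, S100a7a, S100a8, S100a9, S100a10, S100a11, S100a14 and S100a16 shared exonic bases with no other gene model.

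RefSeq promoter windows of 250 bases before and 50 after an annotated start were found for 8 of the 10 members, all except S100a10 and S100a14, in 12 windows. The windows of S100a8 (chr3:90668821-90669120, plus strand) and S100a9 (chr3:90695672-90695971, minus strand) are shown because these genes carried the papain result, and that of their neighbour S100a7a (chr3:90654052-90654351, plus strand) because it stayed at a few counts in the same libraries. Each is printed in the direction of transcription on GRCm38.p6, with matches to any of 5 motifs in capitals.
S100a8: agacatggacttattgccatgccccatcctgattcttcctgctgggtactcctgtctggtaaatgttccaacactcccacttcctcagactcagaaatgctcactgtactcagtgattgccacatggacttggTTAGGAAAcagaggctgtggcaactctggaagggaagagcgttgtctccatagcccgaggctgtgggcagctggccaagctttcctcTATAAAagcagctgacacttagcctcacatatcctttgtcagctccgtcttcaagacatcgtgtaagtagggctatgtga
S100a9: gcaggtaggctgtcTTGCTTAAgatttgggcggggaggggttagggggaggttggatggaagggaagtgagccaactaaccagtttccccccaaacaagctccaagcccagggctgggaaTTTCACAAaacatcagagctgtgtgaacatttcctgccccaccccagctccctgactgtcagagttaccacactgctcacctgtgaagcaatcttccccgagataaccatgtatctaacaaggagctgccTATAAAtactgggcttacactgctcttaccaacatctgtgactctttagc
S100a7a: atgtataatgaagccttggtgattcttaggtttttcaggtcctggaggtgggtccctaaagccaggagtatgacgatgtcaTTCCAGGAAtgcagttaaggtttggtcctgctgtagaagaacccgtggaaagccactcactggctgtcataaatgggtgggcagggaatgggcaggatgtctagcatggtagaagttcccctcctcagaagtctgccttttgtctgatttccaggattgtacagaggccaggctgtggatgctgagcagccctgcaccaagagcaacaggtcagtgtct

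The motifs were searched on both strands. TATAAA began 30 bases before the annotated start of S100a8 and at the first annotated base of S100a9, and stood in 4 of the 12 windows, in S100a3, S100a4, S100a8 and S100a9. It was present in 13.6% of the 32851 promoter windows of the genome. The C/EBP-type motif TTNNGNAA began 117 bases before the start of S100a8 and 236 and 130 bases before that of S100a9, and also stood in 2 windows of S100a3, 4 of the 12 windows in all, against 40.7% of all windows. The STAT-type motif TTCNNNGAA was found among members only in the S100a7a window (8.3% of all windows), the AP-1-type motif TGANTCA in windows of S100a11 and S100a16 (7.81%), and the AhR core GCGTG in 1 window, of S100a3 (32.4%). These are matches of letters, and binding was not measured.

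Per exonic length, S100a11 and S100a14 had the highest group means of the family. Levels between genes were compared as RPKM, CPM per kilobase of exonic length, taken over all annotated exons of a gene and not over 1 transcript. S100a11 stood first in every group, with group means from 920.8 to 1264 RPKM, and in no group did its libraries overlap those of the next gene. S100a14 followed with 375 to 498 RPKM, then S100a10 (229 to 295 RPKM) and S100a16 (224 to 263 RPKM), whose libraries overlapped each other in all 4 groups, and S100a6 (148 to 214 RPKM). S100a4, S100a3 and S100a7a were low throughout, with group means of 1.01 to 3.81, 0.121 to 0.351 and 0.207 to 0.529 RPKM. The order of S100a3 and S100a4 depends on the length used, 5660 bases for S100a3 and 584 for S100a4. Of those 584 bases, 302 were shared with Gm42674. How reads in shared bases were counted is not given, so the RPKM of S100a4 is uncertain. In CPM, S100a3 had the higher mean with vehicle on the I3C diet (1.64 against 1.18).

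S100a8 and S100a9 moved through this order. With vehicle on the I3C diet S100a9 stood at 0.632 RPKM and S100a8 at 0.273 RPKM, in the range of S100a3 and S100a7a. With papain on the AhR-poor diet S100a9 reached a mean of 308 RPKM, below S100a11 and S100a14 alone, with libraries overlapping those of S100a14 above and S100a10 below it, and S100a8 reached 91.5 RPKM. With papain on the I3C diet S100a9 (32.5 RPKM) and S100a8 (23.9 RPKM) stood sixth and seventh and overlapped each other. The 10 members together made up between 0.185% and 0.22% of all counts in libraries with vehicle on the I3C diet, 0.188% to 0.228% with vehicle on the AhR-poor diet, 0.239% to 0.271% with papain on the I3C diet and 0.267% to 0.295% with papain on the AhR-poor diet.

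**Figure D1:**
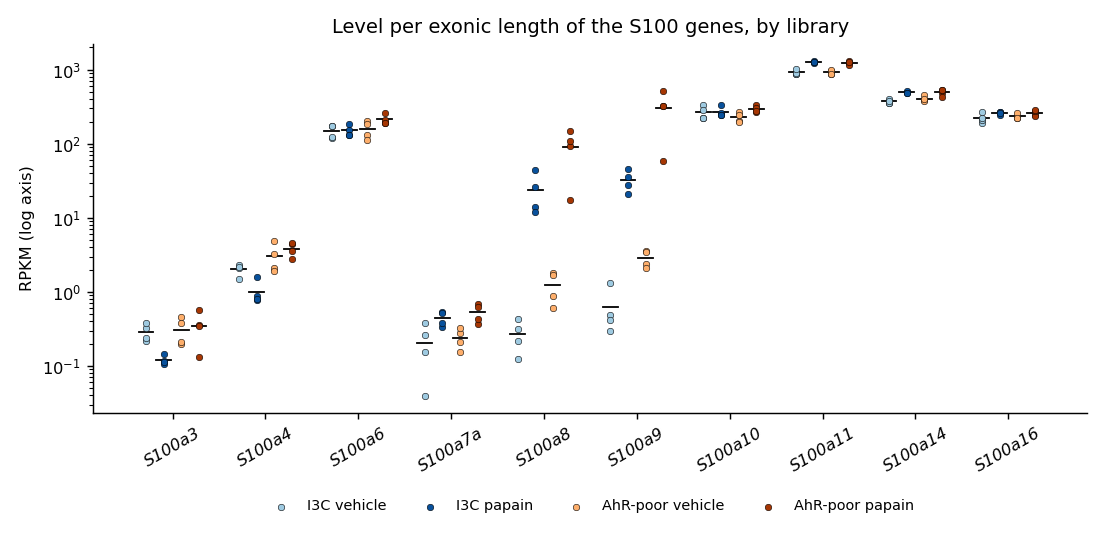
Level of each S100 gene in RPKM (log axis) in the 16 libraries, with points for libraries coloured by group and black lines for group means (n = 4). S100a11 stood highest in all groups, and S100a8 and S100a9 were the only members whose group means spanned more than 10-fold.

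The calprotectin genes S100a8 and S100a9 rose with papain on both diets. S100a8 on the I3C diet was at 0.0861, 0.153, 0.218 and 0.300 CPM with vehicle and at 9.65, 30.3, 17.95 and 8.43 CPM with papain. On the AhR-poor diet it was at 1.25, 1.16, 0.420 and 0.617 CPM with vehicle and at 64.7, 102.1, 75.0 and 12.1 CPM with papain. Every papain library lay above every vehicle library of either diet, and T112 was the lowest of its group by a wide margin.

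S100a9 showed the same order of groups. Its libraries on the I3C diet were at 0.258, 0.153, 0.218 and 0.690 CPM with vehicle and at 14.4, 24.2, 18.4 and 10.8 CPM with papain. On the AhR-poor diet they were at 1.88, 1.80, 1.24 and 1.10 CPM with vehicle and at 169, 272, 170.0 and 31.0 CPM with papain. The 4 groups did not overlap in S100a9, and in S100a8 only the papain groups did, through T112.

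**Figure D2:**
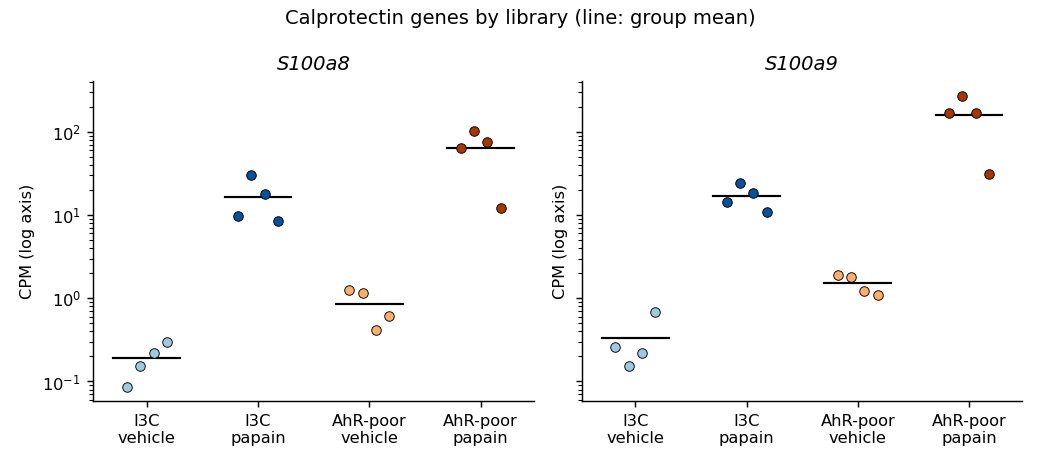
S100a8 and S100a9 in CPM (log axis), with a point for each library and a line for the group mean (n = 4). The papain libraries of both diets sit above all vehicle libraries, and library T112 lies below the other papain libraries on the AhR-poor diet.

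A gene was called when edgeR's quasi-likelihood test gave a Benjamini-Hochberg adjusted p below 0.01 over all genes tested and the difference exceeded 1 on the log2 scale. With papain on the AhR-poor diet 2 of 10 members were called, both higher, where 8.46% of all genes tested were called, 6.04% higher and 2.42% lower. S100a8 rose by 6.20 ± 0.71 (log2 difference ± SE, edgeR adjusted p = 2.0e-05) and S100a9 by 6.74 ± 0.63 (edgeR adjusted p = 4.0e-06), which are 73.8-fold and 106.8-fold. On the I3C diet the same 2 members were called, where 8.98% of genes were called, 3.69% higher and 5.29% lower, with S100a8 up by 6.43 ± 0.86 (edgeR adjusted p = 5.2e-05, 86.4-fold) and S100a9 by 5.70 ± 0.74 (edgeR adjusted p = 4.1e-05, 52.1-fold). The folds on the I3C diet were taken against vehicle libraries with 3 to 10 counts of S100a8 and 6 to 23 counts of S100a9. Both calls held on both diets in each of 16 fits that left out 1 library.

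The rise of S100a8 and S100a9 did not differ detectably between the diets. The interaction of diet and papain, the difference between the papain effects on the 2 diets, was -0.23 ± 1.22 on the log2 scale for S100a8 (edgeR adjusted p = 0.965) and 1.04 ± 1.15 for S100a9 (edgeR adjusted p = 0.739). No member was called for the interaction, where 0.0181% of all genes were called. S100a3 and S100a4 were the 2 members with an unadjusted edgeR p below 0.05, where 2987 of the 22155 genes tested were below it. The median log2 difference of the 10 members with papain was 0.395 on the AhR-poor diet, against -0.004 over all genes tested, and 0.31 on the I3C diet, against -0.036. Over 7 other S100 genes found in the table it was -0.038 and -0.017. Among these, S100a5, S100b, S100z and S100a2 had at most 9 counts in any library.

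Most neutrophil markers were called higher with papain on the AhR-poor diet, and few on the I3C diet. Of 15 neutrophil markers, 11 were called higher with papain on the AhR-poor diet and 2 on the I3C diet, namely Cxcr2, the receptor for neutrophil chemokines, and the matrix protease Mmp9, while Il1r2 was called lower there. None of the 15 was called for the interaction, with the lowest adjusted p at 0.086 for Il1r2 (edgeR), so a difference between the diets in their papain response was not shown. Their levels after papain did differ, with 11 of 15 called higher on the AhR-poor than the I3C diet and 0 lower. Of all genes tested, 7.15% were called higher in that comparison. With vehicle 0 of the 15 were called between the diets. Leaving out Il1r2, which held most of the list's level with vehicle, the sum was 1.46 to 3.93 CPM with vehicle and 31.8 to 38.8 CPM with papain on the I3C diet, and 8.44 to 9.26 CPM with vehicle and 61.7 to 336 CPM with papain on the AhR-poor diet. With papain on the I3C diet Cxcr2 (mean 24.2 CPM) and Mmp9 (mean 10.1 CPM) held most of that sum. Csf3r and Trem1 had means of 0.739 and 0.575 CPM there, against 57.8 and 52.9 CPM with papain on the AhR-poor diet. The neutrophil surface marker Ly6g had no count in any library of 3 groups, and with papain on the I3C diet Ngp and Camp had none either.

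Within the AhR-poor papain group, libraries T112, T104, T107 and T105 had 11.9, 55.6, 56.8 and 107.03 CPM of Csf3r, the granulocyte growth factor receptor, and 12.1, 64.7, 75.0 and 102.1 CPM of S100a8. S100a8 thus took the same order of libraries as Csf3r in that group. The order was not particular to Csf3r. Sums of monocyte and macrophage markers (122, 287, 304 and 569 CPM) took it too. Sums of dermal fibroblast markers (454, 701, 753 and 837 CPM) and epidermal T cell markers (25.1, 46.0, 53.2 and 65.2 CPM) did as well. Langerhans cell markers were highest in T104 (905 CPM) and endothelial markers lowest in T107 (19.3 CPM). Within the I3C papain group, Csf3r was highest in T106 at 2.29 CPM and at 0.0285 to 0.513 CPM in the other libraries, whereas S100a8 was highest in T113 at 30.3 CPM and stood at 9.65 CPM in T106. Other neutrophil markers took other orders there. Mmp9 was highest in T113 at 17.9 CPM and at 6.34 to 8.59 CPM in the other libraries. Cxcr2 was highest in T114 at 29.5 CPM and at 19.3 to 25.2 CPM in the others. Csf3r, Mmp9 and Cxcr2 were picked from the neutrophil list after their values were seen. In bulk RNA fewer cells of a type and less RNA per cell cannot be told apart.

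Keratins of stressed keratinocytes rose on both diets. Krt6a, Krt6b, Krt16 and Krt17, keratins of activated and wounded epidermis, were all called higher with papain on each diet, and their sum went from 604 to 957 CPM with vehicle to 6290 to 13400 CPM with papain on the I3C diet, and from 649 to 1040 CPM to 5860 to 9420 CPM on the AhR-poor diet. In the I3C papain group Krt6a was highest in T113 at 4750 CPM, the library highest in S100a8, and lowest in T106 at 1704 CPM. S100a8 was lowest in T115 at 8.43 CPM, against 9.65 CPM in T106. The other stress keratins are not given by library. In the AhR-poor papain group Krt6a was lowest in T105 at 1459 CPM, the library highest in S100a8. The 10 monocyte and macrophage markers summed to 21.2 to 30.9 CPM with vehicle and 15.0 to 42.2 CPM with papain on the I3C diet. None of them was called with papain on that diet. On the AhR-poor diet they summed to 51.6 to 61.5 CPM with vehicle and 122 to 569 CPM with papain, and 7 were called higher. The part of each of these cell types in the levels of S100a8 and S100a9 was not tested.

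The genes most like S100a8 over the 16 libraries, by the root mean square difference of mean-centred log2 levels among 13026 genes, were S100a9 (0.516), the protease inhibitor gene Serpina3n (0.727) and the interferon-induced gene Oasl2 (0.816). The same genes came nearest to S100a9, at 0.516 for S100a8, 0.926 for Serpina3n and 1.04 for Oasl2. Serpina3n stood at 47.8 ± 14.9 CPM (SD, n = 4) with papain on the I3C diet and at 90.3 ± 17.3 CPM with papain on the AhR-poor diet, against 0.459 ± 0.309 and 2.34 ± 0.725 CPM with vehicle.

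The balance of the calprotectin transcripts after papain was separate between the diets in these libraries, and the difference did not pass adjustment. On the log2 scale the ratio of S100a9 to S100a8 counts in a library was 1.39, 1.42, 1.18 and 1.36 with papain on the AhR-poor diet and 0.58, -0.32, 0.03 and 0.36 with papain on the I3C diet. The groups did not overlap, and library T112, low in both genes, had a ratio like those of the other 3 libraries of its group. The geometric mean ratio was 2.52 on the AhR-poor diet and 1.12 on the I3C diet, a log2 difference of 1.17 with a two-sided exact permutation p of 0.0286, the smallest that 4 against 4 libraries can give, and 0.114 after Benjamini-Hochberg adjustment over the 4 comparisons made. The difference stayed between 1.01 and 1.31 when any of the 8 libraries was left out.

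With vehicle the ratio was 1.87 on the AhR-poor diet and 1.62 on the I3C diet as geometric means, a log2 difference of 0.20 (exact permutation p = 0.686). The vehicle libraries of the I3C diet spread from 0 to 1.58 on the log2 scale at 3 to 23 counts a gene, too few to fix a ratio. Papain against vehicle gave log2 differences of 0.43 on the AhR-poor diet (exact permutation p = 0.143) and -0.54 on the I3C diet (exact permutation p = 0.343).

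**Figure D3:**
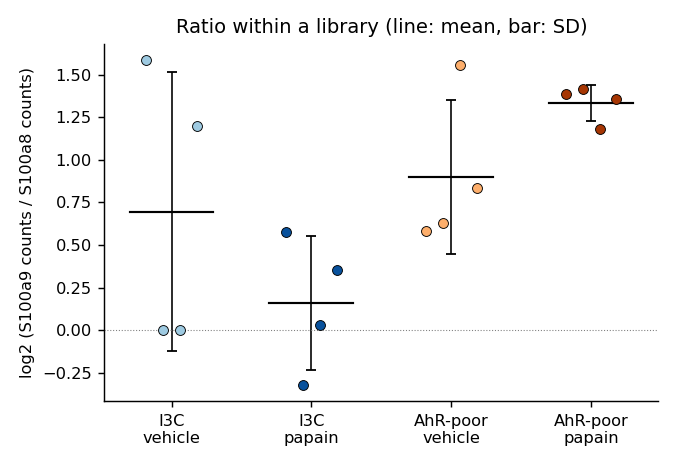
log2 ratio of S100a9 to S100a8 counts within each library, with group means (lines) and SD (bars, n = 4). The papain libraries lie between 1.18 and 1.42 on the AhR-poor diet and between -0.32 and 0.58 on the I3C diet, and the vehicle groups are wide.

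S100a9, S100a4 and S100a3 differed between the diets after papain, all with the higher level where I3C was absent. These were the 3 of 10 members called among papain libraries, where 7.24% of all genes were called, 7.15% higher and 0.0993% lower. S100a9 was 3.25 ± 0.51 higher on the log2 scale (9.51-fold, edgeR adjusted p = 5.3e-04) in 4 of 4 libraries against all 4 of the other diet. S100a8 was 1.94 ± 0.54 higher (3.85-fold) and was not called (edgeR adjusted p = 0.0223). It was called by DESeq2 (adjusted p = 0.0088), with edgeR's own filter on low counts (edgeR adjusted p = 0.0098) and without T112, where it was 2.29 higher (edgeR adjusted p = 9.2e-04). When the 8 papain libraries were fitted alone the call of S100a9 was lost (edgeR adjusted p = 0.0139).

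With papain S100a4 stood at 2.07, 2.56, 2.64 and 1.63 CPM on the AhR-poor diet and at 0.926, 0.449, 0.514 and 0.472 CPM on the I3C diet. Every library of the AhR-poor diet lay above every library of the I3C diet, and T106 stood apart at the top of the I3C group. The difference was 1.89 ± 0.31 on the log2 scale (3.71-fold, edgeR adjusted p = 2.3e-04) and was called in all 16 fits without 1 library.

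With vehicle S100a4 stood at 1.35, 1.22, 0.871 and 1.26 CPM on the I3C diet and at 2.81, 1.24, 1.90 and 1.13 CPM on the AhR-poor diet, and these groups overlapped (log2 difference 0.59 ± 0.29, edgeR adjusted p = 0.433). Papain against vehicle gave -0.98 ± 0.32 on the I3C diet (edgeR adjusted p = 0.0214), short of both thresholds, and 0.33 ± 0.29 on the AhR-poor diet (edgeR adjusted p = 0.422). Without T106 the I3C difference was -1.30 and was called (edgeR adjusted p = 0.0047). The interaction was 1.30 ± 0.43 (edgeR adjusted p = 0.203), so a difference in papain response between the diets was not shown. Libraries held 14 to 135 counts of S100a4.

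Transcripts of dermal, myeloid and endothelial cells differed between the same groups. With papain 8 of 10 fibroblast markers and 9 of 10 monocyte and macrophage markers were called higher on the AhR-poor diet, and collagen Col1a1 was at 44.1 to 115.4 CPM on that diet and 0.599 to 2.41 CPM on the I3C diet. With vehicle, where S100a4 was not called, 8 of 10 fibroblast markers were also called higher on the AhR-poor diet, with Col1a1 at 20.3 to 32.7 CPM against 1.14 to 1.98 CPM. All 6 endothelial markers were called higher on the AhR-poor diet both with vehicle (11.5 to 27.6 CPM in sum against 0.833 to 2.91 CPM) and with papain (at least 19.3 CPM against 0.742 to 2.07 CPM). The 6 Langerhans cell markers, of which 1 was called, summed to 707 to 905 CPM with papain on the AhR-poor diet and to 198 to 586 CPM on the I3C diet. The genes most like S100a4 were Ftl1, a ferritin light chain gene (root mean square difference 0.204), the lysophosphatidic acid receptor Lpar1 (0.226) and Kank3 (0.230). The part of fibroblasts, myeloid, endothelial and Langerhans cells in the level of S100a4 was not tested.

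S100a3, the hair cuticle member, was at 3.20, 0.759, 2.03 and 1.96 CPM with papain on the AhR-poor diet and at 0.609, 0.834, 0.656 and 0.646 CPM with papain on the I3C diet. The groups overlapped through T105, and the difference of 1.53 ± 0.37 on the log2 scale (2.88-fold) was called (edgeR adjusted p = 0.0065). The call was lost in 7 of 16 fits without 1 library, those without any of the I3C papain libraries T106, T113, T114 and T115 or without T104, T107 or T112, with the weakest difference, 1.16, without T104 (edgeR adjusted p = 0.0386), and in the fit of the 8 papain libraries alone (edgeR adjusted p = 0.0143).

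With vehicle S100a3 was at 1.24, 1.35, 1.85 and 2.13 CPM on the I3C diet and at 2.56, 1.11, 2.13 and 1.18 CPM on the AhR-poor diet, which overlapped. On the I3C diet all papain libraries lay below all vehicle libraries, a difference of -1.26 ± 0.37 that missed the threshold (edgeR adjusted p = 0.0124). It was called by DESeq2 (adjusted p = 0.0039), with the 8 libraries fitted alone (edgeR adjusted p = 0.0024) and without T104 or T105 (edgeR adjusted p = 0.0078 and 0.0032). The interaction was 1.44 ± 0.51 (edgeR adjusted p = 0.244).

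Hair keratins varied between the libraries, in part as S100a3 did. The 13 hair shaft and inner root sheath genes found in the table summed to 56.8 CPM in T104, 33.1 CPM in T102, 28.3 CPM in T107, 22.8 CPM in T112 and 22.7 CPM in T100, the 5 libraries with more than 10 CPM. They summed to 1.90 CPM in T105 and to 1.04 to 9.81 CPM in the 8 libraries of the I3C diet. S100a3 was between 1.96 and 3.20 CPM in those 5 libraries, at 0.759 CPM in T105, at 2.13 CPM in T111, whose hair genes summed to 9.81 CPM, and at 0.609 CPM, the lowest of all 16 libraries, in T106, whose hair genes summed to 8.74 CPM. The genes nearest to S100a3 were Nppc (root mean square difference 0.291), Cyp2d22 (0.309) and the transcription factor gene Sox4 (0.311). The amount of hair follicle in each sheet was not measured, and its part in S100a3 was not tested.

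**Figure D4:**
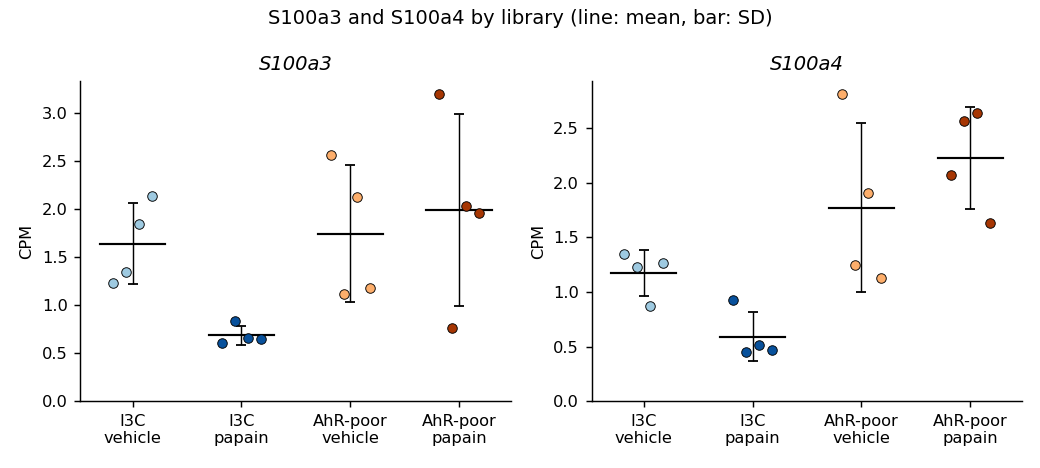
S100a3 and S100a4 in CPM, with a point for each library, a line for the group mean and a bar for the SD (n = 4). With papain the I3C group lies lowest for both genes, S100a4 groups of the 2 diets do not overlap, and in S100a3 library T105 falls among the I3C libraries.

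The abundant members S100a11, S100a14, S100a16, S100a10 and S100a6 changed with papain by less than the size needed for a call. S100a11 was at 451.5, 446, 463 and 529 CPM with vehicle and at 623, 676, 640.3 and 644 CPM with papain on the I3C diet. On the AhR-poor diet it was at 487, 451, 500.4 and 444 CPM with vehicle and at 630, 600, 669 and 649 CPM with papain. Papain and vehicle libraries did not overlap on either diet, and the differences were 0.45 ± 0.07 (1.37-fold, edgeR adjusted p = 4.9e-05) and 0.44 ± 0.07 (1.35-fold, edgeR adjusted p = 8.9e-05).

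S100a14 was at 617, 622, 693 and 660 CPM with vehicle and at 863, 894, 845 and 839 CPM with papain on the I3C diet. The groups did not overlap and differed by 0.41 ± 0.08 (1.33-fold, edgeR adjusted p = 5.9e-04). On the AhR-poor diet it was at 669, 644, 796 and 685 CPM with vehicle and at 840, 738, 918 and 914 CPM with papain. These overlapped through T102 and T105, and the difference was 0.29 ± 0.08 (edgeR adjusted p = 0.0108). Were no minimum size asked, S100a11 and S100a14 would join S100a8 and S100a9 on the I3C diet, making 4 members called, and S100a11 on the AhR-poor diet. Of the 22155 genes tested, 2821 would then be called higher and 2864 lower on the I3C diet. On the AhR-poor diet 2749 would be called higher and 2228 lower.

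S100a16 ranged from 311 to 429 CPM with vehicle and 391 to 431 CPM with papain on the I3C diet, and from 358 to 427 and 389 to 465 CPM on the AhR-poor diet, with overlap on both. S100a10 ranged from 267 to 405 CPM with vehicle and 296 to 400.5 CPM with papain on the I3C diet, and from 242 to 329 and 324 to 402 CPM on the AhR-poor diet. S100a6 ranged from 164 to 237 and 178 to 256 CPM on the I3C diet, and from 156 to 281 and 257 to 362 CPM on the AhR-poor diet. None of these 3 passed the adjusted p of 0.01, and the smallest in them was 0.0516, for S100a10 with papain on the AhR-poor diet (log2 difference 0.37 ± 0.14, edgeR).

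S100a7a, a gene of antimicrobial defence, stayed at a few counts. It was at 0.517, 0.357, 0.0544 and 0.210 CPM with vehicle and at 0.463, 0.738, 0.714 and 0.522 CPM with papain on the I3C diet, which overlapped. On the AhR-poor diet it was at 0.381, 0.291, 0.445 and 0.214 CPM with vehicle and at 0.936, 0.512, 0.866 and 0.598 CPM with papain, which did not overlap. The log2 differences with papain were 1.08 ± 0.42 on the I3C diet (edgeR adjusted p = 0.0536) and 1.10 ± 0.41 on the AhR-poor diet (edgeR adjusted p = 0.0438), from libraries of 2 to 38 counts.

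Over all members, 4 of 10 with papain on the AhR-poor diet had 4 papain libraries above all 4 vehicle libraries (S100a7a, S100a8, S100a9 and S100a11) and none below, where 33.0% of all genes tested did not overlap, 17.0% higher. With papain on the I3C diet 4 members were separate and higher (S100a8, S100a9, S100a11 and S100a14) and S100a3 separate and lower, where 33.4% did not overlap, 16.2% higher and 17.3% lower. Each such separation has a two-sided exact permutation p of 0.0286, which is the smallest possible with 4 against 4.

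With vehicle alone, no member was called between the diets by edgeR, where 1.59% of all genes were called, all of them higher on the AhR-poor diet. The 1 member with an unadjusted edgeR p below 0.05 was S100a9, where 2764 of the 22155 genes tested were below it. S100a8 and S100a9 were each higher in 4 of 4 AhR-poor libraries than in all 4 I3C libraries, where 8.12% of genes did not overlap, 6.45% higher and 1.67% lower. The differences were 2.17 ± 1.11 for S100a8 (4.51-fold, edgeR adjusted p = 0.470) and 2.21 ± 0.90 for S100a9 (4.64-fold, edgeR adjusted p = 0.308), at 3 to 46 counts of S100a8 and 6 to 69 of S100a9. S100a9 was called by DESeq2 (adjusted p = 0.0077) and when the 8 vehicle libraries were fitted alone (edgeR adjusted p = 0.0050).

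None of the 5 members abundant in every group was called between the diets. Among vehicle libraries the log2 differences of S100a11, S100a14, S100a16, S100a6 and S100a10 were -0.01 ± 0.07, 0.11 ± 0.08, 0.06 ± 0.09, 0.11 ± 0.19 and -0.21 ± 0.14, all with overlap. Among papain libraries they were -0.02 ± 0.07, -0.01 ± 0.08, 0.02 ± 0.09, 0.50 ± 0.19 and 0.13 ± 0.14, and S100a6 was the only one of the 5 without overlap (exact permutation p = 0.0286, edgeR adjusted p = 0.0849). With S100a4 and S100a9 it made 3 members that did not overlap between the diets after papain, where 24.9% of all genes did not overlap, 12.5% with the AhR-poor libraries above and 12.3% with them below. The median log2 difference of the 10 members between the diets was 0.111 with vehicle and 0.373 with papain, against -0.01 and 0.01 over all genes tested. Over the 7 other S100 genes, some of them at a few counts, it was 0.725 and 0.441.

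**Figure D5:**
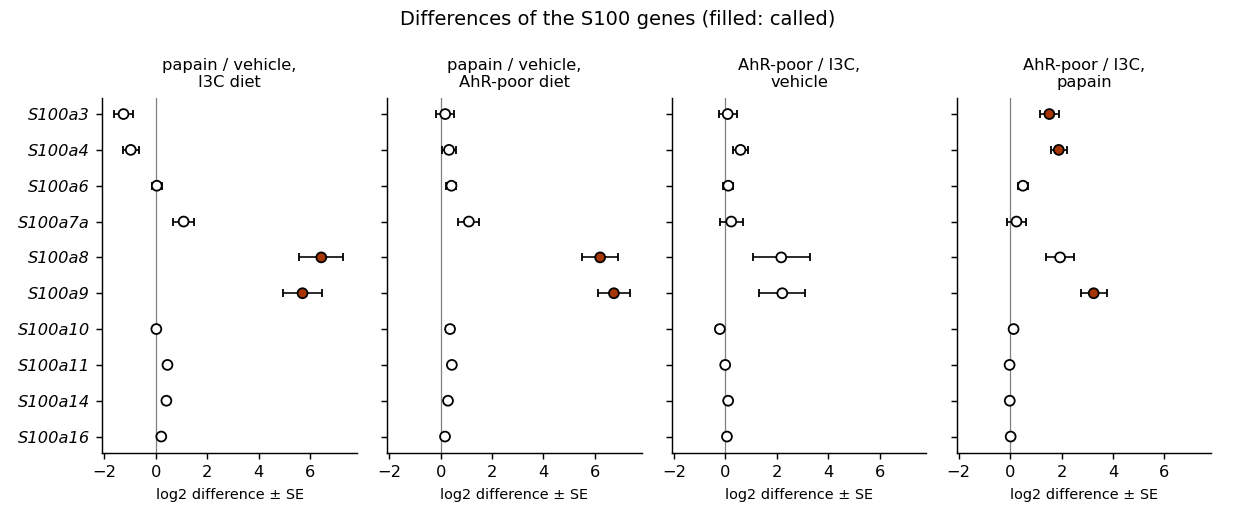
log2 difference (points) and SE (bars) of the 10 S100 genes in the 4 comparisons, filled where called by edgeR. S100a8 and S100a9 lie between 5.70 and 6.74 with papain on both diets, and S100a3, S100a4 and S100a9 are the members called between the diets after papain.

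Of 7 other S100 genes found in the table, S100g, the vitamin D-dependent calbindin gene, was lower with papain on the I3C diet (log2 difference -1.36 ± 0.37, edgeR adjusted p = 0.0071) and higher on the AhR-poor than the I3C diet with papain (1.62 ± 0.37, edgeR adjusted p = 0.0037), at group means of 0.183 to 0.660 CPM. No other gene of that list was called in the 4 comparisons. None of the 8 S100-fused and cornified envelope genes of the same chromosome region, among them Flg, Hrnr and Lor, was called in any of the 4 comparisons, and their median log2 differences with papain were -0.70 on the AhR-poor diet and -0.93 on the I3C diet.

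Among 8 intracellular partners 1 was called higher with papain on the I3C diet and none on the AhR-poor diet. This was Myh9, the non-muscle myosin heavy chain bound by the product of S100a4, which went from 522 ± 89.7 to 1109 ± 158 CPM (SD, n = 4, log2 difference 1.09 ± 0.11, edgeR adjusted p = 3.8e-07). On the AhR-poor diet Myh9 went from 475 ± 22.4 to 816 ± 20.5 CPM (0.78 ± 0.11, edgeR adjusted p = 2.4e-05), short of the size for a call. Its interaction was not called (edgeR adjusted p = 0.393), so a difference between the diets in its papain response was not shown. Annexin A2 (Anxa2), the partner of the product of S100a10, differed by 0.53 ± 0.08 on the I3C diet (edgeR adjusted p = 3.1e-05) and 0.56 ± 0.08 on the AhR-poor diet (edgeR adjusted p = 2.6e-05), and the calcyclin-binding protein Cacybp by 0.71 ± 0.09 (edgeR adjusted p = 3.9e-06) and 0.76 ± 0.09 (edgeR adjusted p = 3.4e-06), both short of the size for a call. Annexin A6 (Anxa6) was called higher on the AhR-poor diet with papain (1.75 ± 0.27, edgeR adjusted p = 2.4e-04).

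Of 8 receptors for secreted S100 proteins, 3 were called higher with papain on the AhR-poor diet, namely Tlr4, Cd33 and Mcam. With papain on the I3C diet Mcam was called higher (1.51 ± 0.20, edgeR adjusted p = 1.4e-05) and Ager, the receptor for advanced glycation end products, lower (-2.23 ± 0.37, edgeR adjusted p = 8.7e-05). Mcam, a cell adhesion molecule that binds calprotectin, stood at 8.42 ± 2.20 CPM with vehicle and 23.98 ± 4.73 CPM with papain on the I3C diet, and at 7.63 ± 1.71 and 22.98 ± 4.46 CPM on the AhR-poor diet.

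Between the diets 1 receptor, Cd36, was called with vehicle and 5 with papain, all higher on the AhR-poor diet. Tlr4, the receptor through which calprotectin acts on innate immune cells, was at 3.91 ± 1.49 CPM with papain on the AhR-poor diet and at 1.13 ± 0.392 CPM with papain on the I3C diet (log2 difference 1.81 ± 0.32, edgeR adjusted p = 4.8e-04). Ager was at 0.999 ± 0.335 and 0.360 ± 0.198 CPM in the same groups (1.498 ± 0.374, edgeR adjusted p = 0.0077). The others were Cd36 (3.99 ± 0.31), Cd33 (5.04 ± 0.85) and Alcam (1.40 ± 0.22). Cd33 and Tlr4 are expressed by myeloid cells, whose markers were higher in the same libraries, and the part of these cells was not tested.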

How the data were processed

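Total RNA of epidermal cells was made into stranded, poly(A)-selected paired-end libraries and sequenced in 3 sequencing units, which the labels do not tie to libraries. According to the labels and the study's methods the reads were aligned with STAR to mm10, and the authors deposited 1 table of whole-number counts per gene and library without normalization. The counting tool and its strand setting are not given in the sources used here. The labels call the mouse groups by diet and treatment, and each library was taken as 1 replicate. The study's methods name the single animal as its experimental unit, so p-values measure the spread between mice of a group.

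Of 50600 identifiers, 50376 matched GENCODE M21 (GRCm38), which gave symbols, positions and exonic lengths, and 224 did not. The 22155 genes with a total of 10 or more counts were fitted with edgeR 4.0.16 in R 4.3.3 (TMM scaling, robust quasi-likelihood fit, 1 mean per group, all 16 libraries), and p-values were Benjamini-Hochberg adjusted over all of them. The study's methods used DESeq2, which was run as an alternative (1.42.0). The thresholds were an adjusted p of 0.01 and a log2 difference of 1. SE is the log2 difference divided by the square root of its F value. CPM were counts over TMM-scaled totals (factors 0.937 to 1.07), and RPKM were CPM per kilobase of exonic length. Exact permutation tests (SciPy 1.17.1, two-sided) used log2(CPM + 0.5), or the log2 ratio of 2 counts. The scripts were tested on simulated data. Alternatives were other scalings, filters, thresholds, the 8 libraries of a comparison alone, DESeq2, and leaving out each library.

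The members and gene lists were chosen with earlier results of these data known, so the lists are described by counts and medians and have no tests of their own. All 10 members are named, and other genes come from the lists or from the 3 genes nearest to each called member. Promoter windows are from RefSeq (GRCm38.p6). Counting intervals and floors cover counting error only.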

Additional observations from a re-analysis of the deposited data

Results flagged for a closer look

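The levels of the members, in CPM, and of the S100a9 to S100a8 ratio were checked in each group of 4 libraries for a library whose gap to its nearest neighbour exceeded Dixon's 95% limit for the range of its group. Of 44 groups checked 3 were flagged, and chance flags about 1 in 20.

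S100a4 in library T106 (I3C diet, papain) stood at 0.9255 CPM, above the next library at 0.514 CPM. Within the I3C papain group T106 also had the highest sums of Langerhans cell markers (586 CPM), epidermal T cell markers (36.8 CPM) and monocyte and macrophage markers (42.2 CPM). Dermal fibroblast markers summed highest there too (180 CPM, or 25.8 CPM without Thy1), as did neutrophil markers (74.3 CPM). Without Il1r2 the neutrophil sum (35.9 CPM) lay inside the range of the other libraries. Csf3r (2.29 CPM) and Trem1 (1.75 CPM) were highest in T106, and Cxcr2 and Mmp9 were not. The part of these cells in the S100a4 level of T106 was not tested. S100a10 in library T113 (I3C diet, papain) stood at 400.5 CPM, above the next at 311 CPM. S100a16 in library T102 (AhR-poor diet, vehicle) stood at 427.3 CPM, above the next at 367 CPM.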

How the results depend on the processing

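No paired analysis was possible because the library codes are not shared between groups. Of 1190 values of members under alternative settings, 1111 kept their direction and side of the threshold, 9 lost a call, 16 gained one and 54, none of them called, changed sign. The members called with papain on the I3C diet numbered 4 with no minimum size, where 2821 of all genes tested were called higher and 2864 lower. The members called between the diets numbered 1 with vehicle, S100a9, both by DESeq2 and with the 8 libraries fitted alone, and 1 with papain, S100a4, with the 8 libraries fitted alone. Their causes were not tested.

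Of the values that changed sign, the largest in size was the S100a7a interaction without T108 (-0.4192 ± 0.580). With scaling by library size only, the log2 difference was -0.0038 for S100a6 and -0.0215 for S100a10 with papain on the I3C diet, 0.0388 for S100a11 between the diets with vehicle, 0.0851 for S100a11 and 0.0912 for S100a14 between the diets with papain, and 0.0463 for S100a11 and 0.0213 for S100a16 in the interaction. The S100a11 interaction was 0.0025 with RLE size factors and 0.0024 with DESeq2. Leaving out 1 library gave ranges across 0 with papain on the I3C diet for S100a10 (-0.1044 to 0.1473) and S100a6 (-0.0922 to 0.1262), and with papain on the AhR-poor diet for S100a3 (-0.1756 to 0.4618). Between the diets with vehicle the ranges were -0.0487 to 0.0549 for S100a11, -0.0153 to 0.1547 for S100a16, -0.1584 to 0.2496 for S100a3, -0.0395 to 0.233 for S100a6 and -0.1225 to 0.6674 for S100a7a. With papain they were -0.0436 to 0.0136 for S100a11, -0.0494 to 0.0336 for S100a14 and -0.024 to 0.0465 for S100a16. In the interaction they were -0.0682 to 0.0353 for S100a11, -0.1262 to 0.0437 for S100a16, -0.4192 to 0.3774 for S100a7a and -0.5682 to 0.252 for S100a8.

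Over all genes tested, 1338 were called higher and 536 lower with papain on the AhR-poor diet, and 2749 and 2228 with no minimum size. On the I3C diet the numbers were 818 and 1171, and 2821 and 2864. Between the diets with vehicle 352 were called higher and 0 lower (784 genes lower at an unadjusted p below 0.05), 595 and 6 by DESeq2, 582 and 5 at an adjusted p below 0.05, and 193 to 430 higher when 1 library was left out. Between the diets with papain 1583 were called higher and 22 lower, the latter 70 at an adjusted p below 0.05, 680 with no minimum size, 11 with scaling by library size only and 6 to 34 when 1 library was left out. For the interaction 4 genes were called higher and 0 lower (1345 lower at an unadjusted p below 0.05), 60 and 3 at an adjusted p below 0.05, 200 and 5 by DESeq2, 10 with scaling by library size only, 7 without a filter on counts, and 2 to 95 when 1 library was left out. Counts of 2 to 46 a library limit the vehicle values of S100a7a and S100a8.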
